A study of Homo sapiens with 12 samples.

Results

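The Frizzled receptors are the family of cell-surface receptors for WNT proteins, and human cells have 10 genes for them, FZD1 to FZD10. All 10 were found by gene symbol among the 25718 genes of the count tables and are described here in human neural progenitors, each read from the transcript with the highest mean count. The cells were derived from H9, an established line of human embryonic stem cells. They were transduced at a multiplicity of infection of 50 with a lentiviral vector that makes miR-10a or miR-10b under the control of doxycycline. They were then differentiated for 14 days towards ventral midbrain, patterned with Sonic hedgehog at 200 ng/ml and CT, an inhibitor of the kinase GSK3. By the paper's protocol both were in the medium only in the earlier part of this time and no longer from day 11. The 4 groups of 3 libraries were miR-10a control, miR-10a doxycycline, miR-10b control and miR-10b doxycycline, where doxycycline cultures received the drug from day 11 until harvest on day 14 and control cultures carried the same vector without the drug. Every group therefore carried a miR-10 vector, and none of the 12 libraries received doxycycline without such a vector, so an action of doxycycline itself cannot be told apart from that of the microRNA. Vector and culture cannot be told apart either, and the sources used here give 3 replicates for each group without saying whether these were separate transductions or experiments. The p-values then measure only the spread between these libraries, which may be technical.

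A Frizzled protein spans the membrane in several passes and binds WNT through a cysteine-rich domain outside the cell. Together with the co-receptors LRP5 and LRP6 it recruits Dishevelled and keeps β-catenin from being destroyed, and without them it can steer planar cell polarity. By sequence the family falls into the groups FZD1, FZD2 and FZD7, then FZD5 and FZD8, then FZD4, FZD9 and FZD10, and finally FZD3 and FZD6. In the embryo WNT signals pattern the neural tube along its length, and WNT1 marks the border of midbrain and hindbrain.

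MicroRNAs of the miR-10 family pair with a target mRNA mainly through the seed, bases 2 to 8 of the mature strand, shown in capitals for miR-10a-5p from RefSeq (GRCh38.p14). The members' longest 3′UTRs in the GENCODE annotation on GRCh37 were searched on the sense strand for ACAGGGT (complementary to bases 2 to 8, 7mer-m8), CAGGGTA (7mer-A1), ACAGGGTA (8mer) and CAGGGT (6mer), where a shorter match lying inside a longer one was not counted again. The best match was a 7mer-m8 in 5 members (FZD1, FZD2, FZD3, FZD4 and FZD9) and a 6mer in 1 (FZD7), and 4 members (FZD5, FZD6, FZD8 and FZD10) held none. For comparison, 9260 of the tested genes have a 3′UTR in the annotation, and there the best match was an 8mer in 2.6%, a 7mer-m8 in 13.7%, a 7mer-A1 in 4.8% and a 6mer in 19.6%, while 59.3% held none. These shares take no account of 3′UTR length, which ran from 337 nt (FZD9) to 11256 nt (FZD3) among the members, so they do not show an excess of matches. The sites below, with the match in capitals, are examples from receptors that carry the letters, among them the one that was lower with doxycycline (FZD7).
miR-10a-5p: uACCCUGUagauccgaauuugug
FZD7, 6mer at chr2:202901639-202901644 (+): gggttaatttcCAGGGTcagacattacg
FZD1, 7mer-m8 at chr7:90897017-90897023 (+): cttagttggttACAGGGTgagtgagataa
FZD9, 7mer-m8 at chr7:72850328-72850334 (+): gctgagtccccACAGGGTcctagtggagg
FZD4, 7mer-m8 at chr11:86659574-86659580 (-): ttagcaatgctACAGGGTtataggcctct
A match describes letters and not a working site.

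Most of the genes have few exons. In the list below the accession names the counted RefSeq transcript, while the interval and exon number are those of the GENCODE annotation. The 2 can differ in length. For FZD1 the counted transcript has 4350 nt, and the longest GENCODE 3′UTR alone has 4502 nt. FZD1 (NM_003505, chr7:90893748-90900641, plus strand), FZD2 (NM_001466, chr17:42634852-42638630, plus), FZD7 (NM_003507, chr2:202898578-202903164, plus), FZD8 (NM_031866, chr10:35927175-35931224, minus), FZD9 (NM_003508, chr7:72848108-72850450, plus) and FZD10 (NM_007197, chr12:130647004-130650285, plus) have 1 exon each on GRCh37. FZD4 (NM_012193, chr11:86656721-86666437, minus) and FZD5 (NM_003468, chr2:208627322-208634630, minus) have 2 exons, and FZD3 and FZD6 have 7 each. FZD4 overlaps the gene PRSS23 on the opposite strand, and FZD8 overlaps a long non-coding RNA on the opposite strand and MIR4683 on its own. The sources used here do not state whether counting used strand, so reads there may not be told apart. Between the members FZD1 and FZD2 shared the longest identical run, 81 nt, and 1.47% of the 50 nt windows of FZD2, 0.467% of those of FZD1 and 0.441% of those of FZD7 also occurred in another member, so a small part of these genes' reads may have more than 1 place to map.

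Of the 10 members, 8 have a single transcript in the tables and could be read as whole genes. FZD3 and FZD6, which act in planar cell polarity and axon guidance, have 2 and 3 transcripts, and the reads those transcripts share were hardly counted. FZD3 had 14 to 24 counts in a library, all of them on NM_017412, and FZD6 had 0 to 3. The levels of both genes therefore cannot be read from these tables. FZD6 was under the filter of a mean above 10 counts and was not tested, which left 9 members tested among 11451 genes.

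The library totals ran from 10545487 to 14165426 counts, and within each vector the control libraries were deeper than the doxycycline libraries. A level of 3 counts, the upper limit that a count of 0 allows, corresponded to 0.212 to 0.284 CPM, counts scaled to a common library total. The microRNA labels held, with 7502 to 8801 counts on the MIR10A gene in miR-10a doxycycline and 8 to 17 in its control, and 29615 to 31908 counts on MIR10B in miR-10b doxycycline and 39 to 56 in its control. Replicate pairs differed by 1.22 to 1.88 times the counting noise (χ² per degree of freedom) in every pair except those with miR-10b doxycycline replicate 2, where the ratio was 3.07 and 3.96, so results that change without that library are given both ways.

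Among the 8 receptors with a single transcript, FZD2 was the most abundant message in every library, followed by FZD1 and FZD7. Levels between genes are compared as CPM per kilobase of transcript. On this scale FZD2 had a mean of 83.4 ± 2.36 (SD over 12 libraries), FZD1 42.0 ± 3.54 and FZD7 29.6 ± 2.95, and the ranges of these 3 did not overlap. A gap followed, with FZD7 3.50-fold above FZD10. FZD10 had 8.46 ± 2.67 CPM per kilobase, FZD9 8.02 ± 1.21, FZD4 4.74 ± 0.498, FZD5 3.48 ± 0.555 and FZD8 1.93 ± 0.183. FZD10 and FZD9 had no single order, because each was the higher in 6 of 12 libraries. FZD10 was the higher in all miR-10a libraries and FZD9 in all miR-10b libraries. FZD4 and FZD5 overlapped in range although FZD4 was higher in 11 of 12. FZD1, FZD2 and FZD7 together made up 83.3% to 87.9% of the summed level of the 8 measured receptors, FZD4, FZD9 and FZD10 8.99% to 14.2%, and FZD5 and FZD8 2.28% to 3.84%.

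**Figure D1:**
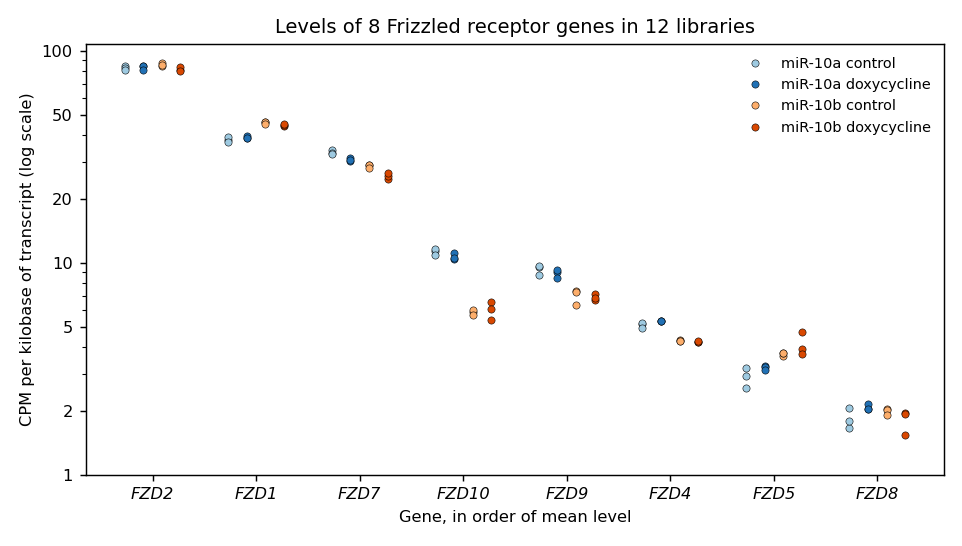
CPM per kilobase of transcript (log axis) of the 8 Frizzled genes with a single transcript, in order of mean level, with 1 point for each of the 12 libraries coloured by group. FZD2 lies above FZD1 and FZD7 in every group, and FZD10 and FZD9 change places between the miR-10a and the miR-10b libraries.

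The first question is whether 3 days of miR-10 expression moved the receptors. FZD7 was the only member to pass the test, and it was lower with doxycycline. Calls here are from edgeR's quasi-likelihood test over all 12 libraries with Benjamini-Hochberg adjustment over all tested genes, at an adjusted p under 0.05. With miR-10a, 0 of 9 tested members were called (1 at an unadjusted p under 0.05, and 0 with DESeq2), where 1.21% of all genes were called. With miR-10b, 1 of 9 was called against 15.3% of all genes, and in the average of both vectors 1 of 9 against 13.9%. In the difference between the vectors' effects 0 of 9 were called (0 at an unadjusted p under 0.05, and 0 with DESeq2) against 1.96%. The shares of members called with miR-10b and in the average were therefore close to those of all genes. The median of the 9 members on the log2 scale was 0.02 for miR-10a and -0.02 for miR-10b, beside medians of 0.01 and 0.02 over all tested genes.

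FZD7, a receptor known from human embryonic stem cells, had 132, 127 and 125 CPM in the miR-10a control libraries and 121, 117 and 118 with doxycycline. In the miR-10b cultures it had 112, 111 and 108 CPM in the controls and 95.8, 98.6 and 102 with doxycycline. Both doxycycline groups lay wholly below their controls. On the log2 scale FZD7 changed by -0.11 ± 0.04 (standard error) in miR-10a cultures, with an adjusted p of 0.232, and by -0.16 ± 0.04 in miR-10b cultures, with an adjusted p of 0.00645, a change of -7.44% and -10.4%. Averaged over both vectors it was -0.14 on the log2 scale (95% interval -0.19 to -0.08, adjusted p = 0.00101), and the vectors' effects were not shown to differ (difference -0.05, 95% interval -0.16 to 0.07, adjusted p = 0.794). Without miR-10b doxycycline replicate 2 the miR-10b value was -0.16 (adjusted p = 0.0111). Leaving out each library in turn kept the call in 12 of 12 fits with miR-10b and in the average. The highest edgeR adjusted p over these fits was 0.0485 with miR-10b, just under the threshold, and 0.0065 in the average. The exact two-sided permutation test of 3 libraries against 3 gave its smallest possible p, 0.1, in each vector.

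FZD2, the most abundant of the 8, had 322, 316 and 309 CPM in miR-10a controls and 323, 325 and 309.9 with doxycycline, and these overlapped. With miR-10b it had 336, 323 and 326 CPM in controls and 308, 319.9 and 306 with doxycycline, and here the doxycycline libraries were all lower. FZD2 thus differed by 0.02 (log2, adjusted p = 0.912) and -0.08 (95% interval -0.14 to -0.01, adjusted p = 0.124). The miR-10b value passed the threshold without miR-10b doxycycline replicate 2 (-0.10, adjusted p = 0.045) and with DESeq2 (-0.10, adjusted p = 0.039), so 2 members rather than 1 were called in those fits. FZD1 had 165, 171 and 162 CPM in miR-10a controls, 169, 173 and 169 with doxycycline, 201, 199.9 and 197 in miR-10b controls and 193, 194 and 197 with doxycycline. Its log2 fold change was 0.04 (adjusted p = 0.785) and -0.03 (adjusted p = 0.572), and 0.00 in the average, with a 95% interval of -3.39% to 3.68%.

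FZD5, a receptor of the eye field and forebrain, had 21.0, 16.9 and 19.2 CPM in miR-10a controls and 21.4, 21.1 and 20.5 with doxycycline. In miR-10b cultures it had 23.8, 24.7 and 24.7 CPM in controls and 30.8, 25.8 and 24.4 with doxycycline. The means were higher with doxycycline in both vectors but the groups overlapped, and 1 library, miR-10b doxycycline replicate 1, was well above the rest. FZD5 differed by 0.15 in miR-10a and 0.14 in miR-10b cultures (log2, adjusted p = 0.572 and 0.249) and 0.15 in the average (95% interval 0.02 to 0.27, adjusted p = 0.105). The average passed the threshold without miR-10b doxycycline replicate 3 (0.18, adjusted p = 0.0381). FZD8, whose cysteine-rich domain is a classic model of WNT binding, had only 59 to 87 counts in a library. It differed by 0.19 in miR-10a and -0.14 in miR-10b cultures (log2, adjusted p = 0.662 and 0.561), and the 95% intervals reached from -0.09 to 0.46 and from -0.41 to 0.14; smaller changes were not detectable at this depth.

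FZD4, which is also the receptor of norrin in retinal vessels, had 38.1, 38.5 and 36.5 CPM in miR-10a controls and 39.1, 39.3 and 39.3 with doxycycline. With miR-10b it had 32.0, 31.5 and 31.5 CPM in controls and 31.3, 31.4 and 31.8 with doxycycline. This came to 0.06 and -0.01 on the log2 scale (adjusted p = 0.792 and 0.963). FZD9, which lies in the region lost in Williams syndrome, had 20.4 to 22.5 CPM in miR-10a controls, 19.9 to 21.6 with doxycycline, 14.8 to 17.2 in miR-10b controls and 15.6 to 16.7 with doxycycline, with log2 fold changes of -0.07 and -0.02 (adjusted p = 0.835 and 0.926). FZD10, known from the dorsal neural tube, had log2 fold changes of -0.08 and 0.03 (adjusted p = 0.745 and 0.832). FZD3 had 1.04 to 1.80 CPM over all libraries and a 95% interval from -0.29 to 0.46 in the average (log2 fold change 0.08, adjusted p = 0.839). FZD6 had 0, 1 and 1 counts in miR-10a doxycycline, 0 in all 3 miR-10a controls, 3, 1 and 1 in miR-10b doxycycline and 2, 2 and 3 in miR-10b controls, all at or under the floor of 3 counts.

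Groups that did not overlap were about as common among the members as among all genes. With miR-10a 2 of 9 members, FZD4 and FZD7, had doxycycline and control libraries that did not overlap, against 18.2% of all tested genes. With miR-10b it was 3 of 9, FZD1, FZD2 and FZD7, against 28.7%.

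**Figure D2:**
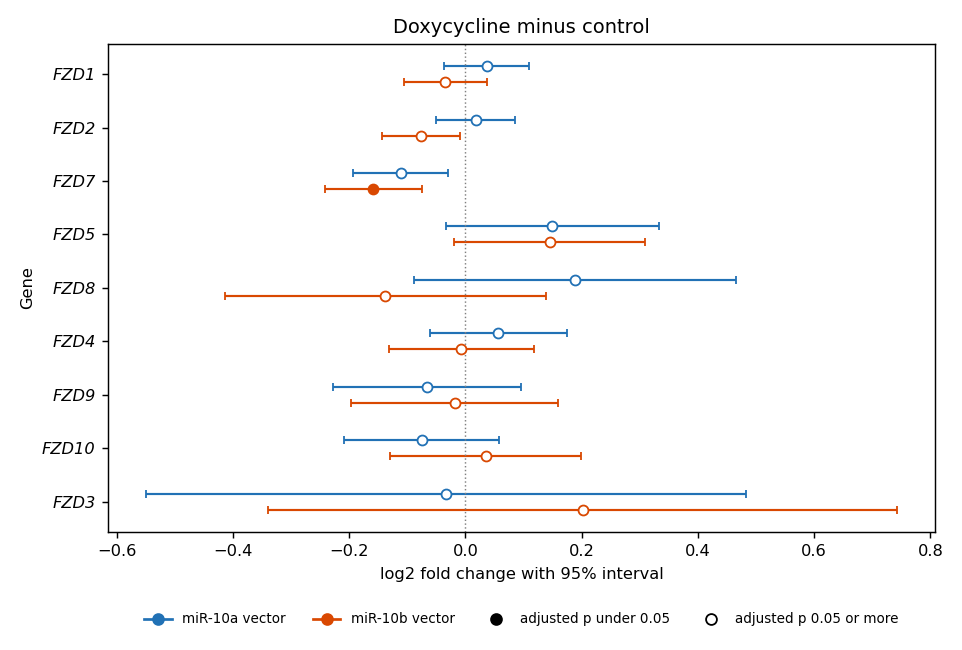
Log2 fold change of 9 Frizzled genes, doxycycline minus control, with the miR-10a (blue) and the miR-10b (orange) vector; points are edgeR estimates, bars 95% intervals, and filled points have an adjusted p under 0.05. FZD7 with miR-10b is the 1 filled point, at -0.16, and the bars of FZD3 and FZD8 are the widest.

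The second question is whether the miR-10a and miR-10b cultures had the same receptor levels at harvest on day 14 when no doxycycline was given. They did not. Without doxycycline, 6 of 9 tested members differed between the control libraries of the 2 vectors, where 14.1% of all genes did. FZD10, FZD9, FZD4 and FZD7 were lower in miR-10b controls (4 of 9, against 6.72% of all genes called lower), and FZD1 and FZD5 were higher (2 of 9, against 7.41%). The 8 of 9 members whose control groups did not overlap, all but FZD8, compared with 30.1% of all tested genes. The 8 include FZD3, which had 14 to 24 counts in a library and whose level cannot be read from these counts. All values between the controls share these libraries with the doxycycline comparisons above. The 6 doxycycline libraries were compared in the same way as a comparison added after seeing the data. They are other libraries than the controls but carry the same vectors and share the fit, so this is not an independent test. Again 6 of 9 were called, against 18.4% of all genes, and these were the same 6 members in the same directions. In 7 of 9 members the doxycycline groups of the vectors did not overlap, against 31.4%.

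FZD10 showed the greatest difference of the members. It had 37.2, 38.1 and 35.7 CPM in miR-10a controls and 19.3, 19.7 and 18.6 in miR-10b controls. With doxycycline it had 34.3, 36.6 and 34.4 CPM in miR-10a and 17.7, 21.4 and 20.0 in miR-10b. Every miR-10b library lay far below every miR-10a library. Between vectors FZD10 differed by -0.95 ± 0.07 (log2, standard error) in controls (adjusted p = 4.92e-13), a change of -48.1%, and -0.84 ± 0.07 with doxycycline (adjusted p = 4.66e-11). FZD10-AS1, a non-coding RNA that lies 203 nt away on the opposite strand and does not overlap FZD10, was chosen after its values were seen. It was lower in miR-10b controls by a log2 fold change of -0.65 (adjusted p = 4.78e-07).

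FZD9, from the same branch of the family, followed with a log2 fold change of -0.42 in controls (standard error 0.08, adjusted p = 0.000223) and -0.37 with doxycycline (adjusted p = 0.00159). FZD4 was at 37.7 ± 1.10 CPM (SD, n = 3) in miR-10a controls and 31.7 ± 0.306 (SD, n = 3) in miR-10b controls. Its log2 fold change was -0.25 in controls (adjusted p = 0.00193) and -0.32 with doxycycline (adjusted p = 0.000163). All 3 members of the FZD4, FZD9 and FZD10 branch were thus lower in miR-10b cultures.

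In the FZD1, FZD2 and FZD7 branch the members went different ways. FZD7 was lower in miR-10b cultures, by a log2 fold change of -0.21 in controls (adjusted p = 0.000142) and -0.26 with doxycycline (adjusted p = 1.26e-05). FZD1 was higher, with a log2 fold change of 0.26 in controls (adjusted p = 4.37e-07) and 0.19 with doxycycline (adjusted p = 0.000118), or 20.0% and 14.2% higher. FZD2 was not called in either, at 0.06 (95% interval -0.01 to 0.12, adjusted p = 0.314) and -0.04 (95% interval -0.11 to 0.03, adjusted p = 0.514).

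FZD5 was higher in miR-10b cultures, by a log2 fold change of 0.37 in controls (standard error 0.09, adjusted p = 0.00194) and 0.36 with doxycycline (adjusted p = 0.00202). FZD8 from the same branch was not called, at 0.12 (95% interval -0.15 to 0.39) and -0.21 (95% interval -0.49 to 0.08). FZD3, at its low counts, was not called either (-0.31 and -0.08, adjusted p = 0.522 and 0.892). Leaving out each library in turn kept all 6 calls in both comparisons, in 12 of 12 fits.

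**Figure D3:**
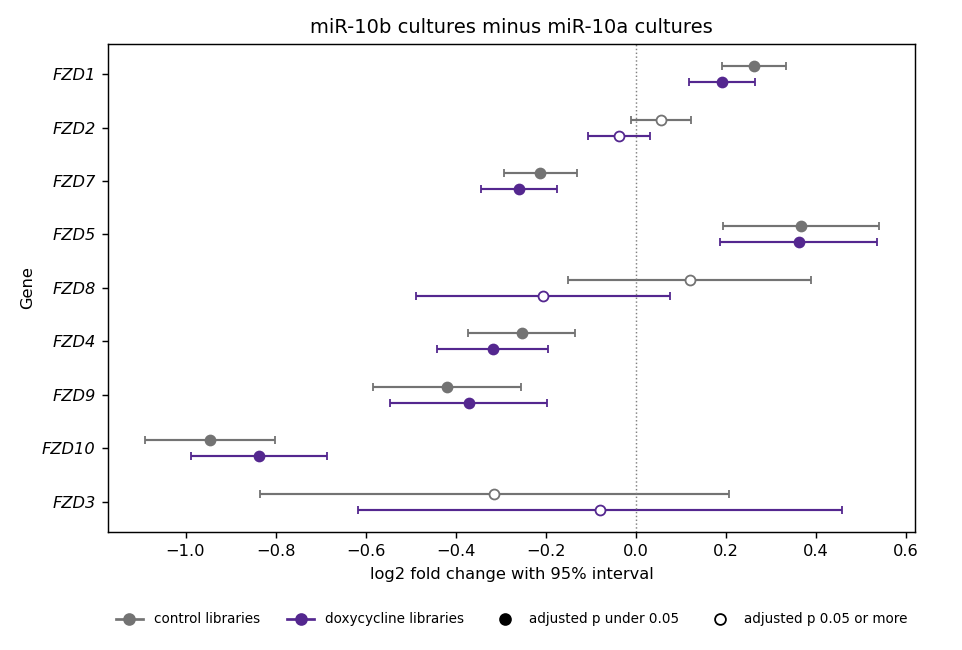
Log2 fold change of 9 Frizzled genes, miR-10b minus miR-10a cultures, in the control (grey) and doxycycline (purple) libraries; points are edgeR estimates, bars 95% intervals, and filled points have an adjusted p under 0.05. The same 6 genes are filled in both, from FZD10 at -0.95 and -0.84 to FZD5 at 0.37 and 0.36.

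Between the vectors' controls the differences largely balanced in the sum. The 8 measured receptors together had 184 ± 4.18 CPM per kilobase (SD, n = 3) in miR-10a controls, 184 ± 2.51 (SD, n = 3) with doxycycline, and 183 ± 2.81 (SD, n = 3) in miR-10b controls. In miR-10b doxycycline the sum was 175.0 ± 2.11 (SD, n = 3), and its 3 libraries lay below all others. Between the doxycycline libraries the sum differed by -4.76%, miR-10b against miR-10a. Between the vectors' controls, what differed was the mix. FZD10 made up 6.11% ± 0.126 (SD, n = 3) of the sum in miR-10a controls and 3.19% ± 0.081 (SD, n = 3) in miR-10b controls, while FZD1 made up 20.7% ± 0.464 (SD, n = 3) and 25.0% ± 0.198 (SD, n = 3). The ratio of FZD9 to FZD10 was below 1 in all miR-10a libraries, from 0.761 to 0.880, and above 1 in all miR-10b libraries, from 1.02 to 1.33. The ratio of FZD1 to FZD7 ran from 1.11 to 1.19 in miR-10a controls and from 1.24 to 1.31 with doxycycline. In miR-10b it ran from 1.59 to 1.61 in controls and from 1.70 to 1.78 with doxycycline, so that the 4 groups did not overlap.

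**Figure D4:**
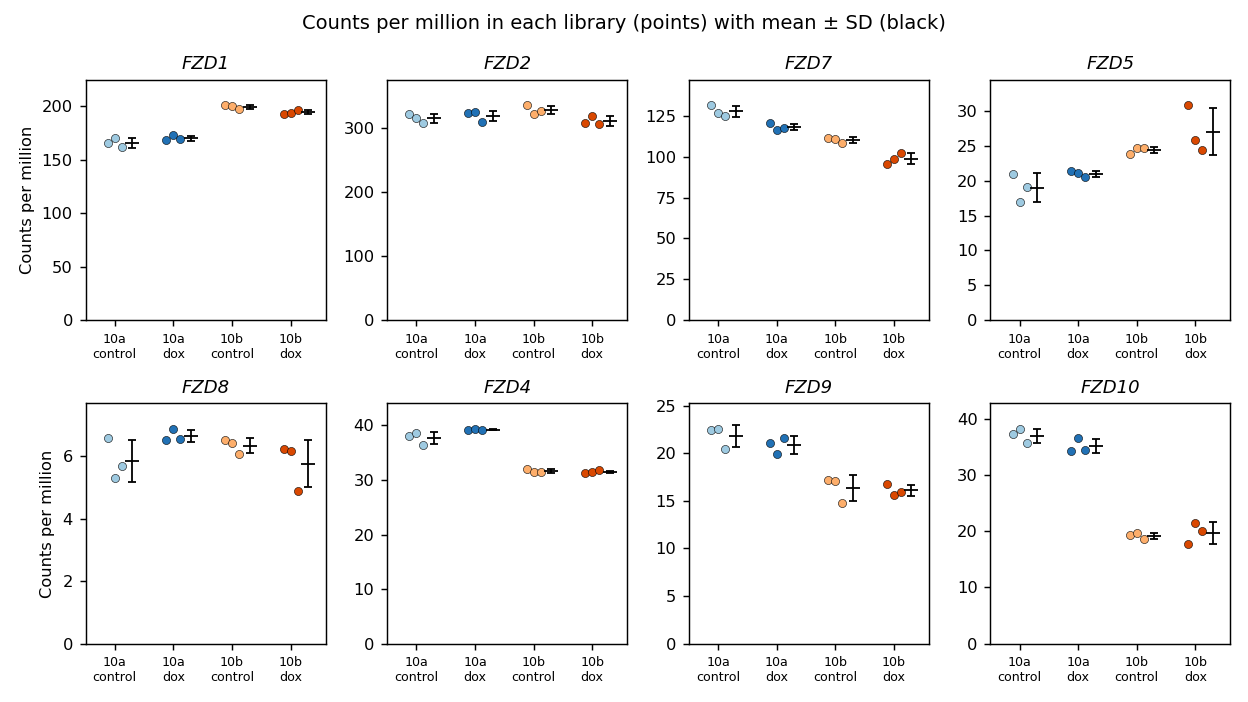
CPM of the 8 single-transcript Frizzled genes in each of the 12 libraries (points), with the mean and SD of each group of 3 in black; every y axis starts at 0 and differs between panels. FZD10 has 35.7 to 38.1 CPM in miR-10a controls and 18.6 to 19.7 in miR-10b controls, and FZD7 steps down both with doxycycline and from miR-10a to miR-10b.

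**Figure D5:**
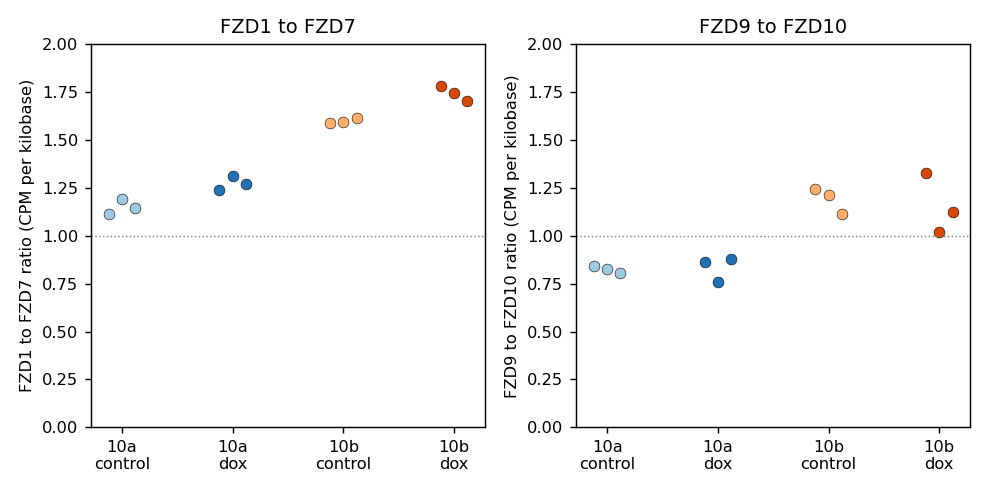
Ratio of FZD1 to FZD7 and of FZD9 to FZD10, each in CPM per kilobase of the same library, with 1 point for each library in its group; the dotted line marks equal levels. The FZD1 to FZD7 ratio steps up over the 4 groups, and the FZD9 to FZD10 ratio lies below 1 in miR-10a and above 1 in miR-10b libraries.

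Other genes of the pathway, 49 in 8 lists, were looked at in the same fit, and 28 passed the filter. With miR-10a 0 of 28 were called (5 at an unadjusted p under 0.05, and 0 with DESeq2). With miR-10b 7 of 28 were called (4 with DESeq2), 6 higher and 1 lower, where 15.3% of all genes were called. In the average it was 7 of 28 (6 with DESeq2), 5 higher and 2 lower, against 13.9%. The co-receptors LRP5 and LRP6 did not pass. LRP6 had a log2 fold change of 0.06 in the average (adjusted p = 0.135), and LRP5 0.15 (adjusted p = 0.349). SMO, the Hedgehog transducer that is the Frizzleds' nearest relative, had 0.01 (95% interval -0.04 to 0.05). ZNRF3, a ubiquitin ligase that removes Frizzled from the surface, had -0.20 (adjusted p = 0.369), and RNF43 with 2 to 10 counts was not tested. LRP5 (62 to 98 counts) and ZNRF3 (28 to 67) have 2 transcripts each, as FZD3 does, so their levels cannot be read from these counts. The same limit holds for ROR1, RSPO2, APC, CTNNB1, TCF7, TCF7L2 and SCRIB, which also have more than 1 transcript. All of these genes are among the 28. Among genes that act inside the cell, DVL3, a Dishevelled, was higher by 0.12 (log2, average, adjusted p = 0.000764), APC2 of the destruction complex by 0.13 (adjusted p = 0.000154) and TCF7L1, a DNA-binding partner of β-catenin, by 0.11 (adjusted p = 0.0113).

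Of the 2 tested genes among R-spondins and other Frizzled ligands 1 passed in the average. TSPAN12, a membrane partner of FZD4 in norrin signalling, was higher with doxycycline by 0.15 (log2, average, adjusted p = 0.00888), while RSPO2, an R-spondin, had -0.11 (adjusted p = 0.116). RSPO2 has 2 transcripts, so the limit given for LRP5 holds for its level too. Of the 3 tested secreted Frizzled-related proteins, which bind WNT through a domain like that of the receptors, 2 were lower. SFRP2 had 168 ± 5.16, 153 ± 1.88, 109 ± 1.36 and 102 ± 1.94 CPM (SD, n = 3) in miR-10a control, miR-10a doxycycline, miR-10b control and miR-10b doxycycline, and was lower by -0.12 in the average (log2, adjusted p = 0.00267). SFRP1 had 1012 ± 27.5, 1023 ± 10.9, 961 ± 17.3 and 858 ± 25.4 CPM (SD, n = 3) in the same order. Its log2 fold change was -0.16 with miR-10b (adjusted p = 0.000144) and -0.07 in the average (adjusted p = 0.0154), and the average lost its call without miR-10a control replicate 3 (adjusted p = 0.0646) or miR-10b control replicate 2 (adjusted p = 0.0517). The remaining calls were small and less stable. CELSR1, a cadherin of planar cell polarity, was at 0.07 in the average (adjusted p = 0.0379) and lost its call with TMM factors (adjusted p = 0.0952), with DESeq2 (adjusted p = 0.124) and in 8 of 12 fits that left out a library, all but those without miR-10a control replicate 2, miR-10b control replicate 1 and miR-10b doxycycline replicates 1 and 3 (highest adjusted p = 0.124). DVL2 and CELSR2 passed with miR-10b (0.11 and 0.09, adjusted p = 0.0308 and 0.0453). Both lost the call with TMM factors, with DESeq2 and with only the 6 samples of the contrast. DVL2 also lost it without miR-10b control replicates 1 or 2 or miR-10b doxycycline replicates 1 or 2 (highest adjusted p = 0.134). CELSR2 kept it only without miR-10a control replicate 2, miR-10b control replicate 1 or miR-10b doxycycline replicate 1 (highest adjusted p of the others 0.194).

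Between the vectors' controls 10 of the 28 tested pathway genes differed, 5 higher and 5 lower in miR-10b, against 14.1% of all genes. Between the doxycycline libraries 11 differed, against 18.4%, of which 8 were shared with the controls in the same direction. ROR2, a WNT5A co-receptor, was lower by -0.78 (log2, adjusted p = 7.02e-10) in controls and -0.83 (adjusted p = 2.19e-10) with doxycycline. SFRP2 was lower by -0.62 (adjusted p = 2.09e-15) and -0.59 (adjusted p = 2.94e-14). LGR4, an R-spondin receptor that protects Frizzleds from removal, was lower by -0.30 (adjusted p = 5.76e-08) and -0.35 (adjusted p = 3.57e-09). RSPO2 was higher by 0.39 (adjusted p = 9.79e-06) and 0.32 (adjusted p = 0.000353), as were PRICKLE2, TCF7L1 and CELSR1 in both comparisons (0.35, 0.26 and 0.17 in controls). Of these 4 genes RSPO2 has 2 transcripts, so its values concern 1 transcript and its level cannot be read from these counts. FRZB, a secreted WNT binder, was lower by -0.25 in controls (adjusted p = 0.0169), a call lost with DESeq2 (adjusted p = 0.0537) and without miR-10a control replicates 1 or 3 or miR-10b control replicate 3 (highest adjusted p = 0.126). Between doxycycline libraries FRZB was lower and called in 12 of 12 fits that left out a library (-0.51 to -0.37, highest edgeR adjusted p = 0.00197). CELSR3 was lower by -0.14 in controls, a call lost without miR-10a control replicate 2 or miR-10b control replicate 3 (highest adjusted p = 0.0777). TSPAN12 was higher by 0.19 in controls, a call lost without miR-10a control replicate 2 or miR-10b control replicates 2 or 3 (highest adjusted p = 0.15). Between doxycycline libraries CELSR3 and TSPAN12 were each called in 0 of 12 fits that left out a library.

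Markers of cell types moved with the vectors as well, and their part in the receptor differences was not tested. In bulk RNA, fewer cells of a type and less RNA per cell cannot be told apart. Neural progenitor markers were abundant in all libraries, at 6205 to 7147 summed CPM, and of 6 tested 2 were higher in miR-10b controls (NES and SOX2) and 2 lower (SOX1 by -1.23 and SOX3 by -0.76, log2). Of 7 tested ventral midbrain markers 5 were higher, among them CORIN (1.61) and LMX1A (1.01). CORIN has 3 transcripts and LMX1A 2, so their levels cannot be read from these counts. The summed level was 1076 to 1096 CPM in miR-10a controls and 1355 to 1379 in miR-10b controls. Most of it came from SHH (mean 560 and 626 CPM) and FOXA1 (409 and 591), with 1 transcript each. OTX2, with 7 transcripts and 2 to 10 counts, was not tested. LMX1B was listed at 0 in all libraries, but it has 3 transcripts in the tables and this 0 does not show that it was absent. Fibroblast markers summed to 134 to 143 CPM in miR-10a controls and 286 to 310.3 in miR-10b controls, with COL3A1 higher by 1.95 (log2) and THY1 lower by -0.30. Hindbrain markers summed to 23.5 to 26.9 and 33.9 to 36.5 CPM, with 3 of 8 listed at 0 in all libraries (HOXB1, HOXA4 and EGR2, of which EGR2 has 4 transcripts). Of 2 tested pluripotency markers DPPA4 was lower by -0.43, and NANOG, which has 2 transcripts in the tables, was listed at 0, which likewise does not show absence. With doxycycline in miR-10b cultures, where FZD7 was lower, 3 of 6 tested progenitor markers were lower (SOX3 by -0.40, HES5 by -0.16 and NES by -0.14) and 1 was higher (MSI1 by 0.10). In the same comparison 2 of 5 fibroblast markers were lower (COL1A1 by -0.60 and COL3A1 by -0.21). Of 7 ventral midbrain markers 1 was lower (CORIN by -0.77, with the limit given above), and 1 of 4 neuronal markers was higher (INA by 0.09).

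The genes whose level followed FZD2, the most abundant of the 8 readable members, most closely over the 12 libraries were KHNYN, FAM184A and MED11, with Pearson correlations of 0.88, 0.86 and 0.86 on log2(CPM + 0.5) among 11450 genes. The points share libraries and groups, and KHNYN and FAM184A are low, at 1.10 and 3.16 CPM.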

How the data were processed

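Messenger RNA of 12 samples was sequenced by the authors. The deposited values are raw counts per RefSeq transcript, not normalized. The submitters' processing notes name STAR, Subread, featureCounts and hg19, with versions and strand setting not given in the sources used here. Each table had 51799 lines, of which 3698 repeated a transcript and were dropped, leaving 48101 transcripts of 25718 genes. Each gene was read from its transcript with the highest mean count, and 92.84% of counts lay on genes with 1 transcript. Totals ran from 10545487 to 14165426 counts, and floors cover counting error only. CPM used these totals. edgeR 4.0.16 (R 4.3.3) fitted 4 group means to all 12 libraries by quasi-likelihood for genes with a mean above 10 counts, with Benjamini-Hochberg adjustment and a threshold of 0.05, and the steps were tested on simulated data. Alternatives were TMM factors, DESeq2 1.42.0, no filter, a mean above 50, summed transcripts, the 6 samples of a contrast, a replicate block and leaving out each library. Python 3.11.15 with scipy 1.17.1 gave exact permutation tests. The members and gene lists were chosen with earlier results of these data known. Named were all members, every pathway gene called (up to 3 a list), and the 3 genes most like FZD2; other names were chosen after their values were seen. Some sequence matches are not reported here.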

Additional observations from a re-analysis of the deposited data

Results flagged for a closer look

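SFRP1, a secreted WNT binder, responded differently to doxycycline in the 2 vectors by a test of the difference itself. The SFRP1 log2 fold change, with miR-10b minus that with miR-10a, was -0.178 (standard error 0.042, edgeR adjusted p = 0.0158). The call was lost without miR-10a doxycycline replicate 1, miR-10a control replicate 2 or miR-10b control replicate 2, and over the 12 fits that left out a library it ran from -0.198 to -0.154 (highest adjusted p = 0.0663). The cause was not tested. Groups of 3 are too small for a search for outlying libraries.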

How the results depend on the processing

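Over the 19 alternatives, 1454 of 1530 gene-level values kept direction and side of the threshold, 47 lost the call, 3 gained it and 26 changed sign. The count of Frizzled genes called with miR-10b was 2 with DESeq2 and 1 to 2 when each library was left out, with 2 without miR-10b doxycycline replicate 2. In the average it was 1 to 2, with 2 without miR-10b doxycycline replicate 3. In the comparison of controls and of doxycycline libraries it was 6 in every fit run. The sign changes were all in values not called. The FZD1 log2 fold change, average of both vectors, was -0.01112 with TMM factors and -0.01451 with DESeq2, and the SMO log2 fold change, average of both vectors, was -0.006969 and -0.01042. When each library was left out, the FZD1 average ran from -0.0078 to 0.012, the SMO average from -0.0052 to 0.0174, the FZD8 average from -0.011 to 0.078 and the FZD10 average from -0.052 to 0.016. With miR-10b FZD4 ran from -0.014 to 0.00042, FZD9 from -0.086 to 0.017 and FZD10 from -0.030 to 0.107. FZD3 ran from -0.132 to 0.097 with miR-10a and from -0.210 to 0.064 between doxycycline libraries. The cause was not tested. The replicate block changed no Frizzled call (counts 0, 1, 1, 0, 6 and 6), and same-numbered libraries did not deviate together (r from -0.0317 to 0.0055). Fits of only 6 samples could not be made for the average and the difference. Over all genes, miR-10a calls were 139, and 275 with only its 6 samples, 75 without miR-10a doxycycline replicate 1, 84 and 81 without miR-10a control replicates 1 and 3, and 268 without miR-10b doxycycline replicate 2. Calls in the difference were 224, and 343 without a filter, 140 without miR-10a control replicate 2 and 339 without miR-10b doxycycline replicate 3. Depth limited FZD8, and the counting of shared reads limited FZD3 and FZD6.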
